A study of Mus musculus with 4 samples.

Results

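Timmdc1 and Arhgap31 are a pair of genes that lie near each other on mouse chromosome 16 and whose array signals differed in opposite directions between autophagy-deficient and control smooth muscle cells. Both were chosen by the very contrast described here, the signal in Atg7F/F relative to Atg7+/+ cells, so their own ratios are given as a description without a test. They are represented by the probes A_51_P468770 and A_52_P400999, which makes 2 genes of 28305 gene names on the array. The 44 probes that belong to neither gene but lie with them in a 2 Mb window of chromosome 16 were not used to choose them and serve as context.

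Primary smooth muscle cells from the aorta of C57LB/6 mice were compared between the genotypes Atg7F/F SM22α-Cre+ and Atg7+/+ SM22α-Cre+. Cre recombinase was thus present in both groups, under a promoter of smooth muscle cells, that of SM22α, and the groups differed in whether the alleles of Atg7, which encodes an enzyme needed to build autophagosomes, were floxed. Cells had been in culture for 4 to 10 passages, and each genotype had 2 biological replicates. Each Atg7F/F extract shared 2 Agilent arrays with the Atg7+/+ extract of the same number, once with each dye orientation, so that 4 arrays gave n = 2 replicate ratios.

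Timmdc1 encodes a membrane protein of the inner mitochondrial membrane that helps assemble respiratory complex I, the enzyme that takes electrons from NADH. It belongs by sequence to the family of the Tim17, Tim22 and Tim23 import proteins. Arhgap31, formerly Cdgap, encodes a GTPase-activating protein that switches off Cdc42 and Rac1, small GTPases that drive the formation of filopodia and lamellipodia. Truncating mutations of the human gene cause Adams-Oliver syndrome, a disorder of scalp and limb development. In RefSeq's gene order for GRCm38.p6, 2 protein-coding genes lie between them. Poglut1, which encodes an enzyme that adds glucose to EGF-like repeats of Notch receptors, comes next to Timmdc1, and Tmem39a, which encodes a transmembrane protein of the endoplasmic reticulum, comes next to Arhgap31.

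The values rest on single 60-base probes, so the start of each probe is shown for both genes, with Poglut1 between them. The first 30 bases are printed 5′ to 3′ in lower case, as the scanner files give them. The A_51_P468770 probe of Timmdc1 lies at chr16:38498991-38499050 of the mm9 build. The A_52_P400999 probe of Arhgap31 lies at chr16:38598803-38598862, and the Poglut1 probe at chr16:38525787-38525846. All 3 are on the minus strand by the order of their coordinates. Exon and untranslated-region annotation on mm9 was not used here.
Timmdc1 A_51_P468770: aacccttcatcgccagatcaacaaagcaag
Poglut1 A_51_P248444: gcagagactgcagtcttcatatgtgaccat
Arhgap31 A_52_P400999: gctcttggaatatgaaaagacctaaccaag
Arhgap31 A_51_P182244: cagtctagcgcctctggaaatgcttctgtt

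Both chosen probes start 99.8 kb apart. The Timmdc1 probe has a GC content of 55%, at the 95th percentile of all tested probes (55%), whereas the Arhgap31 probe has 40%, below their median of 45%. All 3 forward reading frames of the Arhgap31 probe hold a stop triplet, and 2 frames of the Timmdc1 probe hold none.

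The share of spots rated well above background ran from 43.3% to 45.5% over the channels, and 0 spots were saturated. Atg7 itself, the targeted gene, was lower in Atg7F/F on every array, with log2 ratios (Atg7F/F over Atg7+/+) of -1.26, -1.09, -0.96 and -1.57, the first pair from replicate 1. Its mean was -1.22 ± 0.07 (SD, n = 2), and the adjusted p from limma was 1.00. It was -1.73 ± 0.13 without the added normexp offset and -2.35 ± 0.73 with the scanner software's processed signals. Since the floxed exon is not given in the labels, this probe may lie outside the deleted part. Of 15 smooth muscle markers, 14 were measured above the filter, among them Acta2, Tagln and Myh11. All 20 endothelial markers listed were also measured. Of 14 macrophage and leukocyte markers 6 were measured, namely Cd68, Csf1r, Cd14, Lyz2, Cd53 and Fcer1g. Adgre1 and Ptprc, defining markers of macrophages and leukocytes, were among those that did not pass the filter.

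Timmdc1 was brighter in the Atg7F/F extract on each of the 4 arrays. With Atg7F/F in Cy5, the raw mean signals were 1670 in Atg7F/F and 265 in Atg7+/+ for replicate 1. With the dyes exchanged they were 1288 and 337. In replicate 2 the signals were 1078 in Atg7F/F and 220 in Atg7+/+ with Atg7F/F in Cy5, and 960 and 290 with the dyes exchanged. The lowest Atg7F/F signal, 960, was thus over the highest Atg7+/+ signal, 337. This only describes a probe that was chosen by this contrast. Local background lay between 43 and 88.5, and the scanner software rated both channels as well above background on all 4 arrays. In such bulk extracts a change in the number of cells of a type and a change in RNA per cell cannot be told apart, for either gene.

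After background correction and loess normalization, Timmdc1 had log2 ratios of 2.16, 2.45, 1.66 and 2.24 on the arrays in the order just given. The replicate means were 2.31 and 1.95, with a mean of 2.13 ± 0.25 (SD, n = 2), which is 4.37-fold. On the log2 scale of the normalized single channels, the level in replicate 1 was 10.49 for Atg7F/F and 8.18 for Atg7+/+, and in replicate 2 it was 10.14 and 8.19. By these levels the control extracts were nearly equal, and the Atg7F/F extracts differed. The dye-swapped arrays of replicate 2 also differed, at 1.66 and 2.24. Without background subtraction they had 1.98 and 2.21, so the difference between replicates depends on the processing. Among 17100 tested probes the Timmdc1 mean of 2.13 ranked 6th from the top.

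Arhgap31 was dimmer in the Atg7F/F extract on each of the 4 arrays. With Atg7F/F in Cy5, the raw mean signals were 174 in Atg7F/F and 499 in Atg7+/+ for replicate 1, and 113 and 630 with the dyes exchanged. In replicate 2 they were 127 in Atg7F/F and 584 in Atg7+/+ with Atg7F/F in Cy5, and 84.5 and 723 with the dyes exchanged. Here too the signals of the genotypes lay apart in a probe that was chosen by this contrast. The Atg7F/F signals were close to their local background of 84, 43, 89 and 49 in the same order, so that only 35.5 to 89.8 units remained after subtraction, against 454 to 649 units in Atg7+/+. Even so, both channels of this probe carried the software's rating of well above background on each of the 4 arrays.

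Arhgap31 had log2 ratios of -2.13, -2.03, -1.84 and -2.77 in the same array order. The replicate means were -2.08 and -2.30, with a mean of -2.19 ± 0.16 (SD, n = 2), or 4.57-fold lower in Atg7F/F. Normalized single-channel levels of replicate 1 were 7.11 for Atg7F/F and 9.19 for Atg7+/+, and those of replicate 2 were 7.01 and 9.32. The mean ranked 3rd from the bottom of the 17100 tested probes and lowest of the 544 on chromosome 16. The size of this ratio moved with the background correction, and the cause was not tested. It was -2.30 ± 0.39 without background subtraction, 4.92-fold, -2.83 ± 0.27 without the added offset of 50, 7.09-fold, and -3.39 ± 0.80 with the scanner software's processed signals, 10.5-fold. For Timmdc1 the same alternatives gave 2.18 ± 0.13, 2.36 ± 0.26 and 2.53 ± 0.08.

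**Figure D1:**
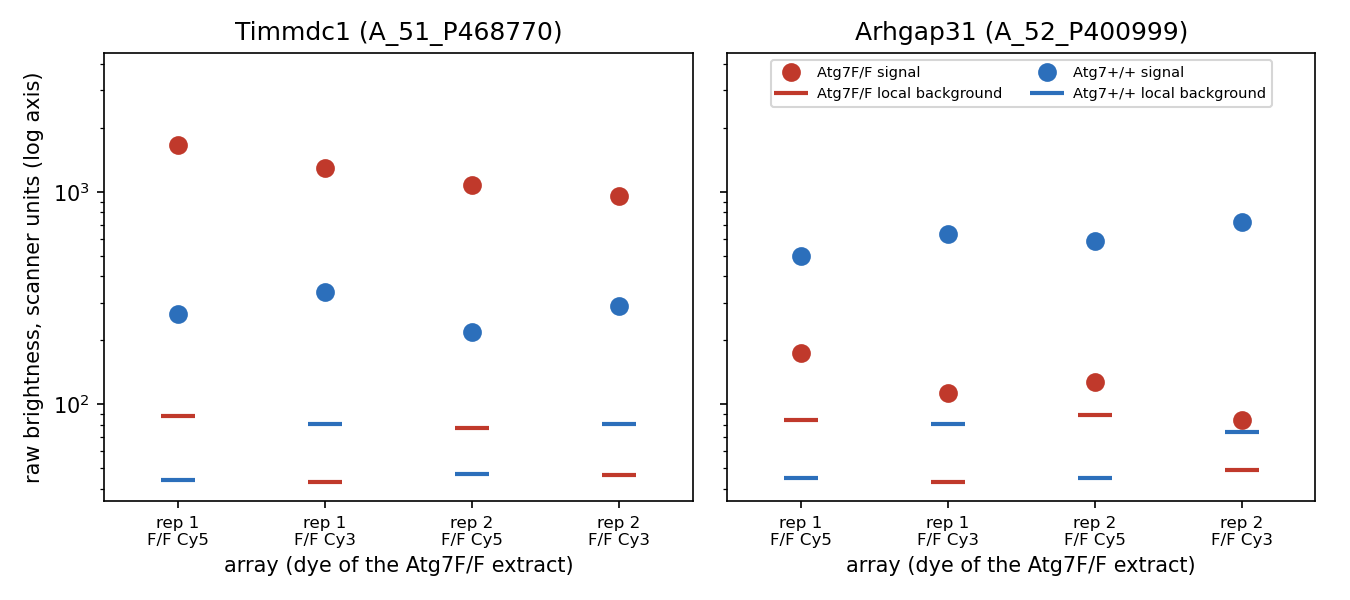
Raw mean spot brightness in scanner units (log axis) of the Timmdc1 and Arhgap31 probes on the 4 arrays, with the Atg7F/F extract in red and the Atg7+/+ extract in blue; points are single spots and horizontal bars their local background. Timmdc1 is at 960 to 1670 in Atg7F/F and 220 to 337 in Atg7+/+, and Arhgap31 at 84.5 to 174 in Atg7F/F, near its background, and 499 to 723 in Atg7+/+.

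Other probes of the same genes were too dim to repeat these values. The second Timmdc1 probe, A_52_P483885, was not well above background in either genotype on any array, and neither was the third Arhgap31 probe, A_52_P228833. Another Arhgap31 probe, A_51_P182244, is assigned to the same RefSeq transcript as the chosen one and starts 4.74 kb from it. It was well above background on 3 of 4 arrays in Atg7+/+ and on 0 in Atg7F/F. Its log2 ratios were -0.12, -0.07, -0.07 and -0.18, with a mean of -0.11, or 1.08-fold lower in Atg7F/F. With Atg7F/F below the detection rating, the size of this difference could not be read. In the scanner software's processed signals its log2 ratios were -0.90, -0.74, -2.28 and -1.80, the same direction as the chosen probe, but these signals were below the detection rating in Atg7F/F. The size of the Arhgap31 and Timmdc1 ratios therefore rests on 1 probe each.

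The ratios of the genes around them were smaller than those of the 2 probes, which were chosen for theirs. Of the 44 neighbouring probes, 24 passed the filter, which required signal well above background in at least 1 genotype on all 4 arrays. Their mean log2 ratios ran from -0.77 to 0.27 with a median of -0.03, and 23 of 24 stayed within 0.5 of 0. For all tested probes the 5th and 95th percentiles were -0.24 and 0.25. Outside that range lay Poglut1, Popdc2, B4galt4 and a probe of Lrrc58 at -0.37. At least 2-fold higher on all 4 arrays were 0 of them, against 0.0526% of all tested probes, and at least 2-fold lower were 0, against 0.0234%. On all 4 arrays 2 were higher, against 10.2% of all tested probes, and 3 were lower, against 10.1%. With limma, 0 of the 24 had an adjusted p below 0.05, which was also the share of all tested probes (0%). At an unadjusted p below 0.05 there were 3 of 24, or 12.5%, against 3.13% of all tested probes. These were Poglut1, Popdc2 and B4galt4.

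Poglut1 was the lowest of these neighbours, and its probe starts 26.8 kb from that of Timmdc1. Its raw signals were 466 in Atg7F/F and 664 in Atg7+/+ with Atg7F/F in Cy5 and 324 and 845 with the dyes exchanged in replicate 1. In replicate 2 they were 383 and 490, and 287 and 627 with the dyes exchanged, so Atg7F/F was dimmer on every array. Its log2 ratios were -1.03, -0.92, -0.44 and -0.68 in the same order, with a mean of -0.77 ± 0.29 (SD, n = 2), or 1.70-fold lower. It did not pass the test, as limma gave an unadjusted p of 0.0108 and, over all probes, an adjusted one of 1.00. With the dye-swapped pair as a random block over 4 arrays the adjusted p was 0.240. The other intervening gene could not be read, since the Tmem39a probe reached a rating of well above background on 0 arrays.

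Popdc2, which encodes a cAMP-binding membrane protein of muscle, had ratios of -0.35, -0.32, -0.37 and -0.64, with a mean of -0.42 ± 0.12 (n = 2). B4galt4, a galactosyltransferase, had ratios of 0.26, 0.15, 0.41 and 0.25, with a mean of 0.27 ± 0.09. Each kept its direction on all 4 arrays and each had an adjusted p of 1.00 from limma. The remaining probes nearest to Timmdc1 gave values around 0. The 2 probes of Cd80, the T cell costimulatory ligand whose nearer probe starts 3.36 kb away, had means of -0.17 and -0.01. The 3 probes of Adprh, an ADP-ribosylarginine hydrolase, had means between -0.16 and 0.08.

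Further off, several neighbours had opposite signs in the 2 replicates. Pla1a, a phosphatidylserine-specific phospholipase, had -0.61 in replicate 1 and 0.36 in replicate 2. Fstl1, a secreted glycoprotein, had -0.15 and 0.63, and Upk1b, a uroplakin, 0.31 and -0.09. The kinase gene Gsk3b had a mean of -0.02 ± 0.10, and the copper chaperone gene Cox17 had means of -0.19 and -0.03 by its probes. Means of Rabl3 were 0.03 and 0.12, that of Gtf2e1, a subunit of transcription factor IIE, was 0.18, and those of the 3 tested Lrrc58 probes were -0.37, -0.03 and 0.04. Ndufb4, itself a subunit of complex I, was at -0.06 ± 0.01, Igsf11 at -0.05, the transcript AK087429 at -0.08 and the unnamed probe A_52_P2659 at 0.15. Genes with no tested probe in the window included Nr1i2, Maats1 and Hgd.

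**Figure D2:**
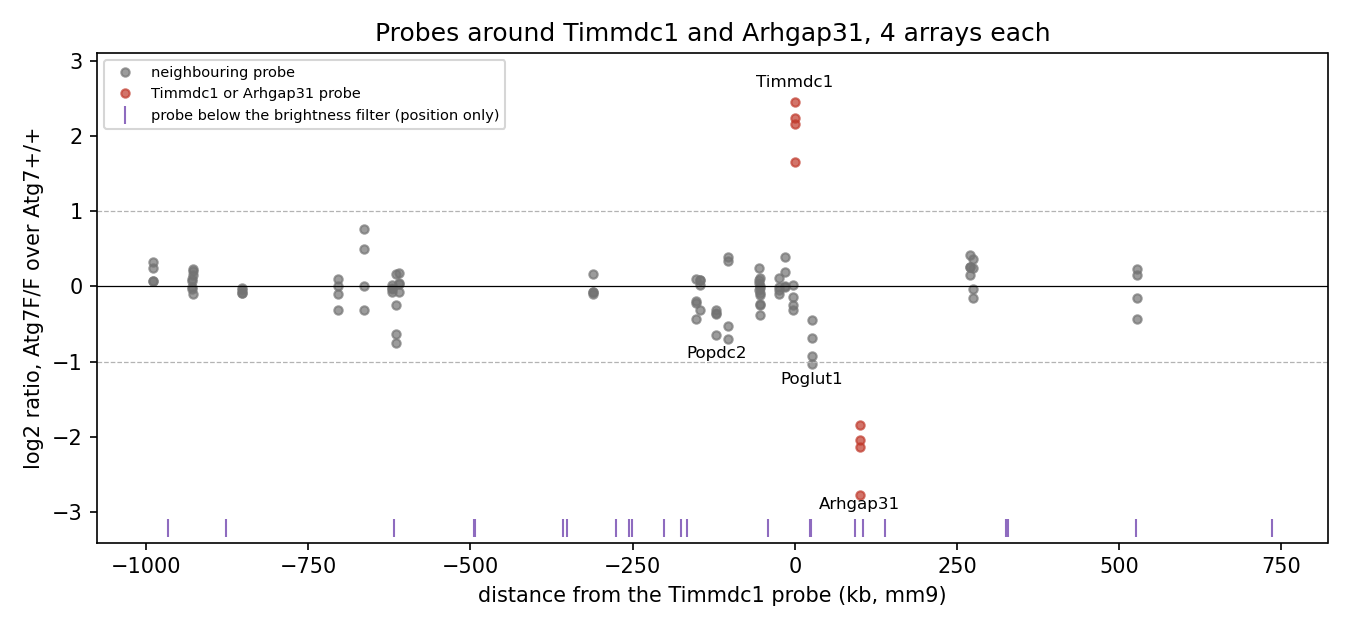
Log2 ratio of Atg7F/F over Atg7+/+ on each of the 4 arrays (points) against distance in kb from the Timmdc1 probe, for the chosen probes (red) and the 24 tested neighbours (grey); dashed lines mark 2-fold and ticks mark probes below the brightness filter. Timmdc1 lies above 1.6 and Arhgap31 below -1.8 on every array. Single-array values of the neighbours lie between -1.03 and 0.76, and their means between -0.77 and 0.27.

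On the whole of chromosome 16, 544 probes were tested. At least 2-fold higher on all 4 arrays were 2, Timmdc1 and Cd200, where the share of all tested probes was 0.0526%. At least 2-fold lower was 1, Arhgap31, where that share was 0.0234%. Timmdc1 and Arhgap31 were chosen by this contrast, so their place in these counts follows from the choice. Cd200, which encodes an immunoregulatory surface glycoprotein, had log2 ratios of 1.60, 1.37, 2.69 and 3.14, higher in replicate 2 than in replicate 1. Its probe lies outside the window, at chr16:45382430-45382489.

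**Figure D3:**
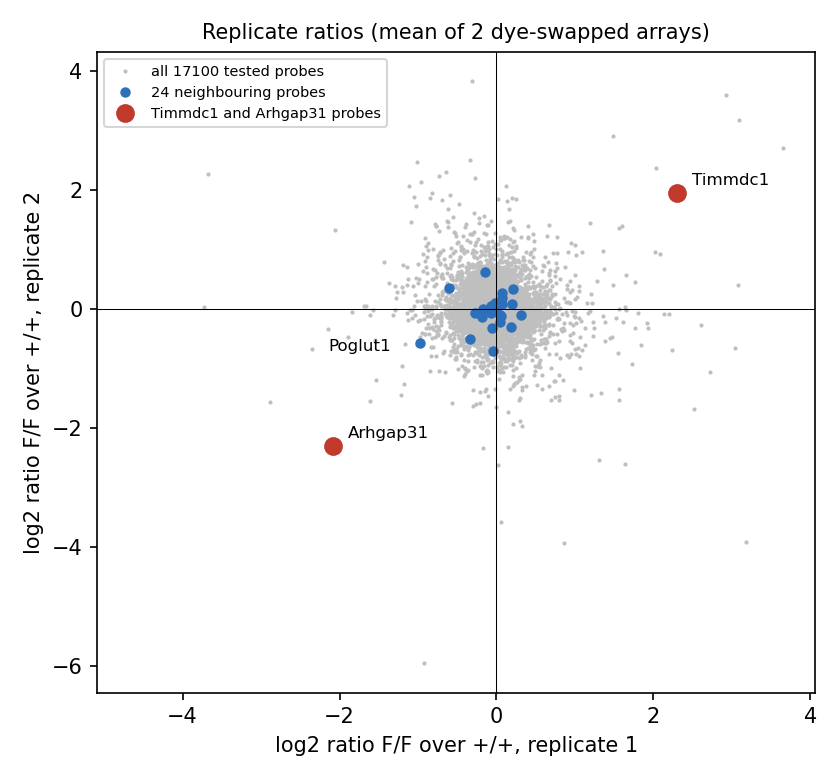
Mean log2 ratio of the dye-swapped arrays in replicate 1 (x axis) and replicate 2 (y axis) for all 17100 tested probes (grey), the 24 neighbours (blue) and the chosen probes (red). Timmdc1 is at 2.31 and 1.95 and Arhgap31 at -2.08 and -2.30, and Poglut1, at -0.97 and -0.56, is the lowest neighbour by mean.

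The probes whose 4 ratios were most like those of each gene were found by the Euclidean distance across the 4 arrays. Closest to Timmdc1 was a probe of the glutathione S-transferase Gsta3, with 2.09, 1.98, 1.94 and 2.80 and a distance of 0.79 log2 units. It was followed by Gsdme at 1.29, Nqo1, a quinone reductase, at 1.42, Nat12 at 1.51 and Ccng2 at 1.59. Closest to Arhgap31 was Plac8, with -1.63, -1.58, -1.48 and -1.61 and a distance of 1.39. Anxa4 followed at 1.54, Ints13 at 1.76, Erdr1 at 1.85 and Atg7 at 1.97. Among these 10 probes, Gsta3 alone was under 1 log2 unit from its gene.

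The other genes of complex I assembly had ratios centred near 0. Of 19 listed factors, 15 besides Timmdc1 were measured, by the brightest probe of each gene. Higher on all 4 arrays was 1, against 10.6% of all 12358 genes, and lower was 1, against 9.93%. Their median log2 ratio was -0.03, where all genes had 0.0034, and their means ran from -0.45 to 0.29. With limma 0 passed the adjusted test, and 1 had an unadjusted p below 0.05, against 3.4% of all genes. Acad9, a core member of the assembly complex, had -0.45 ± 0.53, replicate 1 standing at -0.82 and replicate 2 at -0.07, and the methyltransferase Ndufaf7 had 0.29 ± 0.07, with 0.17 by its other probe.

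All 36 listed nuclear-encoded subunits of complex I were measured, and their median was -0.03, with means from -0.33 to 0.20. Of these, 3 were higher on all 4 arrays, against 10.6% of all genes, and 1 was lower, against 9.93%. Ndufa11, a membrane-arm subunit, had -0.33 and -0.29 by its 2 probes, with -0.59 and -0.51 in replicate 1, and Ndufa13 had 0.20 ± 0.36. Of 20 genes of the Tim17, Tim22 and Tim23 import machineries, 19 were measured, with a median of 0.00 and means from -0.25 to 0.16. Their largest values were those of Timm17a at -0.25 ± 0.33, Timm8b at -0.21 ± 0.35 and Timm10 at -0.18 ± 0.41. The probes of Timm8b did not point the same way, since its other probe had 0.15 ± 0.22. In both lists 0 genes passed limma's adjusted test, against 0% of all tested probes. At an unadjusted p below 0.05 there were also 0, against 3.4% of all genes.

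In a list of GTPase-activating proteins drawn up for Rac1 and Cdc42, not all of them selective for these 2, 21 besides Arhgap31 were measured of 27. Higher on all 4 arrays was 1, against 10.6% of all genes, and lower were 2, against 9.93%, and the median was -0.01. Of those 21, 0 passed the adjusted test of limma and 1 had an unadjusted p below 0.05, against 3.4% of all genes. Arhgap22 had -0.52 ± 1.19 and Arhgap10 -0.45 ± 0.94, both with opposite signs in the 2 replicates. The chimaerin Chn2 was lower on all 4 arrays, at -0.35 ± 0.13, where the unadjusted p was 0.0322 and the adjusted p was 1.00.

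A list of Rac1 and Cdc42 with their exchange factors and effectors, which also holds Gsk3b and Arhgdia, was likewise centred near 0. Of 41 genes 38 were measured, with a median of -0.01. On all 4 arrays 3 were higher, against 10.6% of all genes, and 4 were lower, against 9.93%. With limma 0 passed the adjusted test, against 0% of all tested probes. At an unadjusted p below 0.05 there were 0, against 3.4% of all genes. The exchange factors Tiam2 and Tiam1 had 0.52 ± 0.58 and 0.33 ± 0.29, and the kinase Pak1 -0.31 ± 0.63. Of the genes known from Adams-Oliver syndrome, 3 besides Arhgap31 were measured. Eogt, which adds N-acetylglucosamine to EGF-like repeats, had -0.05 ± 0.05, and the probes of the exchange factor Dock6 had -0.08 and -0.04, so all lay close to 0.

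Endothelial markers were lower in the same Atg7F/F extracts. Of 20 measured, 15 were lower on all 4 arrays, against 9.93% of all genes, and 0 were higher. The median was -0.33, with -0.19 in replicate 1 and -0.43 in replicate 2. With limma 0 passed the adjusted test and 7 had an unadjusted p below 0.05, against 3.4% of all genes. Vwf, von Willebrand factor, had -0.70 ± 0.42, the adhesion molecule Esam -0.65 ± 0.63 and the nitric oxide synthase Nos3 -0.64 ± 0.65. The means ran from -0.70 to 0.35, and 3 markers, named after their values were seen, had means above 0. These were Flt1, a VEGF receptor, at 0.35 ± 0.41, Sox18 at 0.14 ± 0.17 and Cldn5 at 0.05 ± 0.91. Summed over the list, the signal of replicate 1 was 18567 in Atg7F/F and 21374 in Atg7+/+, and that of replicate 2 was 20261 and 33647. The part of these markers in the Arhgap31 ratio was not tested.

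Smooth muscle markers had a median of -0.07, with 1 higher and 4 lower of 14 on all 4 arrays, against 10.6% and 9.93% of all genes. By limma 0 passed the adjusted test and 1, Tpm1, had an unadjusted p below 0.05, against 3.4% of all genes. Summed over the list, the signal of replicate 1 was 369012 in Atg7F/F and 390547 in Atg7+/+, and that of replicate 2 was 267244 and 328591. Actg2, smooth muscle gamma actin, had 0.42 ± 0.32 and tropomyosin 1, Tpm1, -0.39 ± 0.20 and -0.38 ± 0.17 by its probes. Of 14 macrophage and leukocyte markers 6 were measured, with a median of 0.01, and 1 was higher and 2 were lower on all 4 arrays, against the same shares of all genes. Their summed signal was 2149 and 4784 in Atg7F/F and 2765 and 3456 in Atg7+/+, and Cd68 had -0.37 ± 0.09, Csf1r 0.16 ± 0.10 and Cd14 -0.09 ± 0.07. Fibroblast markers, 10 of 12 measured, had a median of 0.10, with 0 higher and 2 lower on all 4 arrays, against 10.6% and 9.93% of all genes, and sums of 8414 and 7280 in Atg7F/F and 10660 and 6592 in Atg7+/+. Cd34 had -0.69 ± 0.46, Col14a1 0.44 ± 0.98 and Ly6a 0.38 ± 1.28. Of both lists 0 genes passed limma's adjusted test, against 0% of all tested probes. Cd68 in the first and Cd34 in the second had an unadjusted p below 0.05, against 3.4% of all genes. The part of these lists in the ratios of Timmdc1 and Arhgap31 was not tested.

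**Figure D4:**
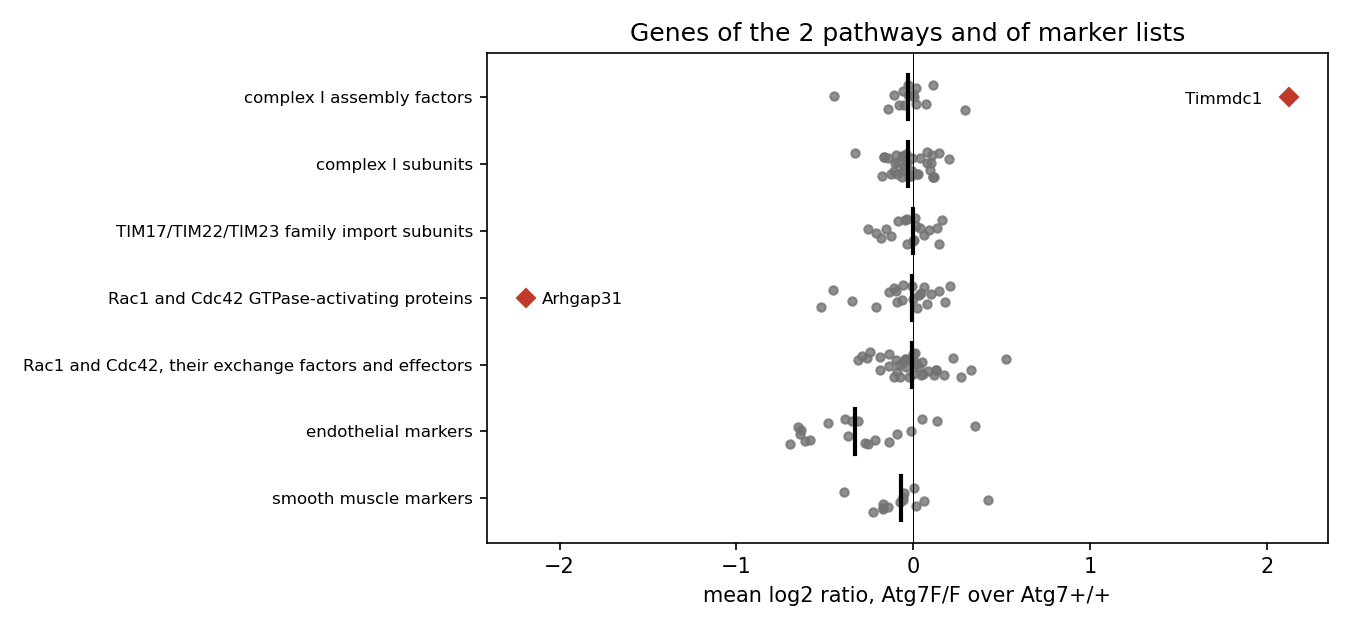
Mean log2 ratio of Atg7F/F over Atg7+/+ (x axis) for the measured genes of 7 lists (rows), 1 grey point per gene by its brightest probe, with vertical bars at the list medians and red diamonds for the chosen probes. Timmdc1 is at 2.13 and Arhgap31 at -2.19, and both were chosen by this same contrast, so their distance from the other genes is no test. The other genes of their lists run from -0.45 to 0.29 and from -0.52 to 0.21, and the endothelial median is -0.33.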

How the data were processed

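The deposited scanner files, which per their headers come from version 10.1.1.1 of Agilent's Feature Extraction, hold mean spot intensity, median local background intensity and processed signals in each channel, with a log10 ratio of Cy5 over Cy3. A further table deposited by the authors holds log2 ratios. For 100% of single-spot probes these matched the processed signals to within 0.001, turned to Atg7F/F over Atg7+/+, with column medians of 0.199, -0.094, 0.081 and -0.037.

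Dyes came from the labels. Mean intensities were corrected with normexp (limma 3.58.1, R 4.3.3; offset 50, which shrinks ratios of dim spots), then normalized by loess within arrays with control spots at weight 0. Single channels were further scaled between arrays (Aquantile). The 2 dye-swapped arrays of a pair were averaged and counted as 1 replicate. Of 41174 probes, 17100 had no non-uniformity outlier and signal well above background in at least 1 genotype on all 4 arrays. Gene names came from RefSeq accessions (25097 probes), otherwise from the files. In limma (lmFit, eBayes) the replicate ratios were set against 0, two-sided, with Benjamini-Hochberg adjustment over all 17100 probes. Having only 2 replicate ratios limits the precision, and the smallest adjusted p from limma over all 17100 probes was 0.512. The code was tested on simulated data. Figures used matplotlib 3.10.9.

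The 2 genes and all lists were chosen with earlier results of these data known. Named were the chosen probes, all probes of the window, the 3 probes of each list with the largest absolute mean, and the 5 probes closest to each gene. Same-numbered extracts shared arrays, so the pairing comes from the hybridisation; their deviations correlated at 0.20. Alternatives covered background correction, normalization, processed and deposited values, the probe filter, the brightest probe, each replicate left out, and fits with no replicate block or a random block.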

Additional observations from a re-analysis of the deposited data

How the results depend on the processing

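Timmdc1 stayed higher and Arhgap31 lower in Atg7F/F under every alternative run. Timmdc1 moved to 2.53 with the scanner software's processed signals and with the deposited log2 table, and Arhgap31 to -3.39 with both and to -2.83 with a normexp offset of 0. The cause was not tested. Neighbouring probes higher on all 4 arrays numbered 2, and 3 with offset 0 and 1 with median centring. Those lower on all 4 numbered 3, and 5 without background subtraction, with processed signals and with the deposited table, and 1 with median centring. With 1 replicate left out, and so only 2 arrays to keep a sign on, 6 to 8 neighbours were higher and 7 to 11 lower. Limma called 0 of all probes, 1 with no replicate block on unpaired single-channel signals and 9 with the pair as a random block, which also counts agreement between technical repeats. It called 0 neighbours in every fit. A fit with 1 replicate left out has no replicate error and was not tested. Signal over background limits Arhgap31 in Atg7F/F, at 1.43 to 2.62 times the local background.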
